A study of Mus musculus with 6 samples.

Results

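Steroid receptors and the proteins that prepare them for hormone were examined in cells of the mouse oviduct lacking Pbrm1, which encodes a subunit of the PBAF form of the SWI/SNF chromatin remodeling complex. The set held 9 genes, matched to the count table by symbol: the nuclear receptors of progesterone (Pgr), estrogen (Esr1 and Esr2), glucocorticoid (Nr3c1) and mineralocorticoid (Nr3c2), the receptor cochaperones Fkbp4 and Fkbp5, the membrane-associated progesterone receptor component Pgrmc1, and Hsd11b1, an enzyme of the endoplasmic reticulum that regenerates active glucocorticoid from its inert keto form. Each of the 9 symbols matched exactly 1 of the 54232 genes of the deposited count table, and all 9 passed the filter on low counts that left 15376 genes to test.

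Transcripts were counted by RNA-seq in primary smooth muscle cells of the oviduct on day 2 of pregnancy from females aged 8 to 12 weeks, with 3 libraries from mice labelled WT and 3 from mice with conditional deletion of Pbrm1 (cKO). In the study the cKO genotype was Pbrm1 fl/fl with a PR-IRES-cre allele, in which Cre is driven by the Pgr gene itself and acts in Pgr-expressing cells throughout the reproductive tract and in the corpus luteum. One member of the set, Pgr, is therefore also the locus that carries the Cre cassette, and its counts in cKO come from a normal and a modified allele together. The labels give WT as the control genotype, whereas a legend in the study's supplement names Pbrm1 fl/fl. Whether a library was made from 1 animal or a pool is not given in the sources used here, so the p-values measure only the spread between these samples. Between dissection and lysis the cells of both groups were digested with trypsin, collagenase and dispase and plated for some hours, first in serum stripped of steroids with charcoal and then in serum that was not stripped.

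A nuclear steroid receptor without hormone is held by the chaperone HSP90 in a heterocomplex that keeps its hormone pocket open. FKBP4 (also called FKBP52) and FKBP5 (FKBP51) bind the same end of HSP90 through tetratricopeptide repeats and compete for a place in that complex. FKBP4 supports hormone binding and nuclear transport of the progesterone and glucocorticoid receptors, and mice without it are infertile because the uterus responds poorly to progesterone. FKBP5 lowers the hormone affinity of the glucocorticoid and progesterone receptors, and its gene is itself induced by both hormones. In the oviduct, estrogen and progesterone act on the contraction of the muscle and the passage of the early embryo.

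Libraries held 15390818 to 18947947 counts, and values below are CPM, read counts relative to the size of the library, normalized by the trimmed mean of M values. Pbrm1 fell from between 170 and 183 CPM in WT to between 42.7 and 50.7 CPM in cKO, 26.0% of the WT mean. The smooth muscle markers Acta2 (1287 CPM in WT and 1536 CPM in cKO), Tagln, Myh11 and Cnn1 were all detected, and so were markers of other cells. Summed markers of fibroblasts ran from 4947 to 5518 CPM in WT and from 7401 to 7746 CPM in cKO, those of leukocytes from 722 to 770 and from 1067 to 1169 CPM, and those of smooth muscle from 3483 to 3554 and from 4254 to 4748 CPM. In total RNA from a mixture of cells, fewer cells of a type and less RNA per cell cannot be told apart, and the part that these markers have in the results below was not tested.

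Of the 9 genes, Fkbp4, Fkbp5 and Esr2 fell in cKO and none rose (edgeR quasi-likelihood test, Benjamini-Hochberg adjusted p under 0.05). The 3 called genes were 33.3% of the set, against 43.7% of all tested genes called in either direction. All 3 were lower, where 21.8% of all tested genes were called lower and 21.9% higher. Whether a set of 9 genes differs from these shares was not tested. Without cKO replicate 2, Pgr and Esr1 were also called lower, making 5. That fit called 7054 of 15671 tested genes, 3469 of them lower. The values of 4 of the 9 genes (44.4%) did not overlap between the groups, against 53.5% of all tested genes. The median log2 fold change of the 9 genes was -0.05, and that of all tested genes was 0.0016. Pgr, Esr1 and Nr3c1, the most abundant nuclear receptors of the set, were at 96.6%, 95% and 97.1% of their WT means, and the HSP90-binding immunophilins Fkbp4 and Fkbp5 at 73.0% and 70.7% of theirs.

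**Figure D1:**
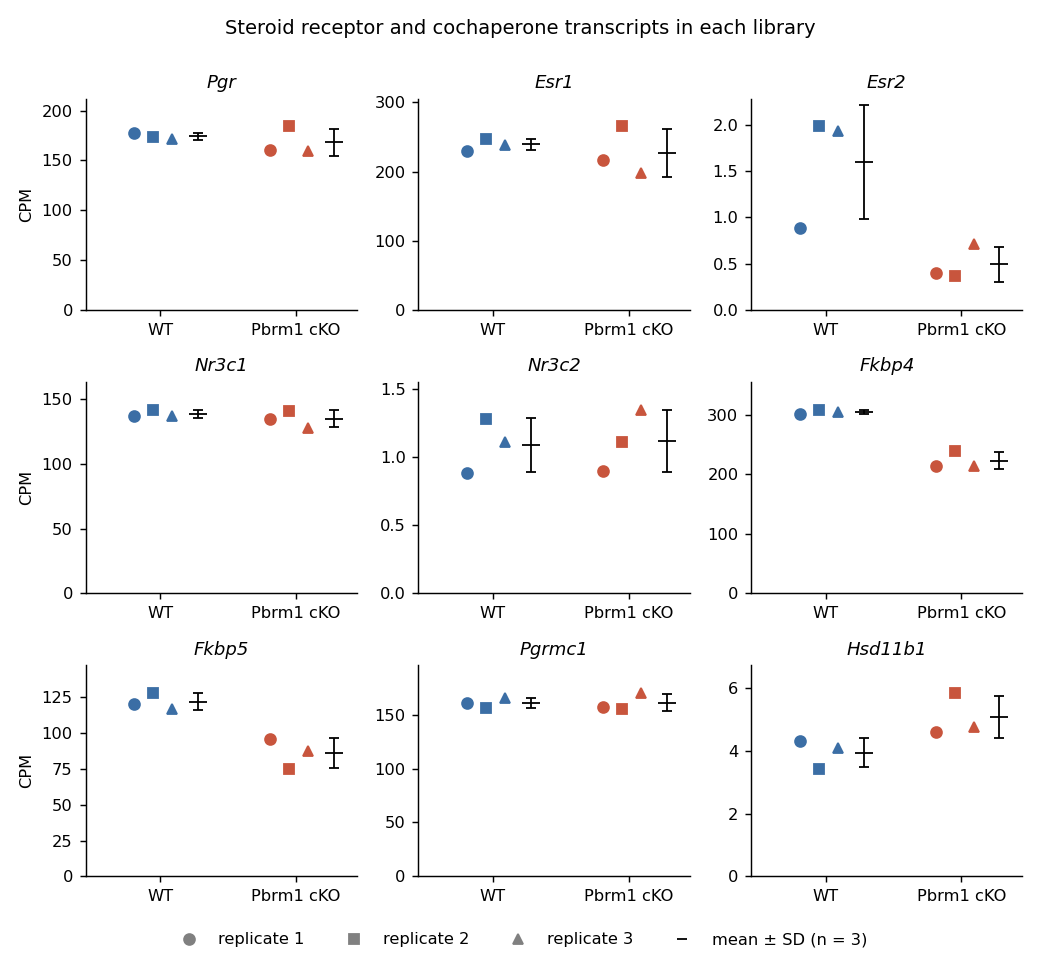
CPM (vertical axes, each from 0) of the 9 transcripts in each of the 3 WT (blue) and 3 Pbrm1 cKO (red) libraries, with the symbol giving the replicate and the black bar the group mean ± SD. Every cKO library lies below every WT library for Fkbp4, Fkbp5 and Esr2, every cKO library lies above every WT library for Hsd11b1, and the groups overlap for the other 5 genes.

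Both cochaperones fell by similar amounts. The promoter windows of both genes are shown because both transcripts fell on average, although their order over the cKO libraries differed. Each is the RefSeq window (build GRCm38.p6) from 250 bases before to 50 bases after the start of transcription, on the minus strand of chr6:128438607-128438906 for Fkbp4 and of chr17:28486100-28486399 for Fkbp5, written 5′ to 3′ with the heat shock pair of Fkbp4 in capitals.
Fkbp4: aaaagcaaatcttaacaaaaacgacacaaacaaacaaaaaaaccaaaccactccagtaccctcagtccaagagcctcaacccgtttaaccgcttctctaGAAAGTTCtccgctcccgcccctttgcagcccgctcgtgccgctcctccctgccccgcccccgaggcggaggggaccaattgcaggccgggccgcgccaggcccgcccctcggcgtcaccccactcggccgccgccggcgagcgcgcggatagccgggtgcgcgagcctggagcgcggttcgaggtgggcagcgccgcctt
Fkbp5: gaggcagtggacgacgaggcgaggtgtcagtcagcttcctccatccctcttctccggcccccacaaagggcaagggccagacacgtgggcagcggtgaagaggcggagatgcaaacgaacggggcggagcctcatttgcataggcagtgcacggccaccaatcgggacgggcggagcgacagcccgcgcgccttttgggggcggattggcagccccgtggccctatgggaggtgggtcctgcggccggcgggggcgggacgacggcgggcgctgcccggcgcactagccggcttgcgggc
Both windows are rich in CpG dinucleotides. Fkbp4 had 33 CpG and 65.3% G and C, Fkbp5 had 32 CpG and 70.7% G and C, and the median of 32851 RefSeq promoters was 7 CpG. More CpG than in Fkbp4 were found in 7.73% of promoters, and more than in Fkbp5 in 8.56%. Searches of both strands covered the palindrome shared by progesterone, glucocorticoid and mineralocorticoid receptors (arms GNACA and TGTNC with 3 bases between them, in 0.475% of all promoters), its single arm (TGTTCT or AGAACA, in 19.0%), the estrogen receptor palindrome (arms GGTCA and TGACC with 3 bases between them, in 0.07%) and a pair of heat shock factor units (GAANNTTC or TTCNNGAA, in 15.1%). The Fkbp4 window held a heat shock pair beginning 151 bases before the start, and the Fkbp5 window held none of the 4 motifs. The Fkbp5 window lies inside the annotated span of the gene (28399095 to 28517524, minus strand), so any start farther upstream was not searched. RefSeq windows were matched for 8 of the 9 genes, with 2 for Esr1 and none used for Nr3c1. Among the others, Nr3c2 also held 1 heat shock pair, Pgrmc1 held 1 single arm 228 bases before its start, and neither palindrome was found in any window. These are matches of letters and not sites of binding.

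Fkbp4 (ENSMUSG00000030357.10, GRCm38 chromosome 6, 128429735 to 128438677, minus strand) stood at 301, 309 and 305 CPM in WT replicates 1, 2 and 3 and at 215, 239 and 215 CPM in the cKO replicates. The lowest WT library was above the highest cKO library, and the WT libraries lay close together. On average Fkbp4 fell from 305 ± 3.95 to 223 ± 14 CPM, or 73.0% of WT (SD, n = 3 libraries; log2 fold change -0.45, SE 0.0493, 95% interval -0.56 to -0.35, edgeR adjusted p = 7.56e-06). Among all tested genes, 23.3% changed by more in either direction. The 3 protein-coding genes whose profile over the 6 libraries, taken relative to their own WT mean, lay nearest to that of Fkbp4 among 10608 compared were Champ1, Csrnp2 and Star, with root mean square differences of 0.0108, 0.0193 and 0.0223 on the log2 scale. Star encodes the protein that delivers cholesterol to the mitochondrion for steroid synthesis.

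Fkbp5 (ENSMUSG00000024222.16, GRCm38 chromosome 17, 28399095 to 28517524, minus strand) was at 120, 128 and 117 CPM in WT and at 95.7, 74.6 and 87.6 CPM in cKO. Again no cKO library reached the lowest WT library. The mean fell from 122 ± 5.63 to 86.0 ± 10.6 CPM, or 70.7% of WT (SD, n = 3; log2 fold change -0.50, SE 0.0738, 95% interval -0.66 to -0.34, edgeR adjusted p = 1.04e-04). Its nearest profiles were those of Akap12, Sgms1 and Kcnab1, at root mean square differences of 0.0398, 0.0587 and 0.0601. Replicate 2 of the cKO group was the lowest for Fkbp5 and the highest for Fkbp4.

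Because FKBP4 and FKBP5 compete for the same receptor complexes, the ratio of their transcripts was compared within each library, per kilobase of exon. Fkbp5 stood at 0.175, 0.182 and 0.169 of Fkbp4 in WT and at 0.196, 0.137 and 0.179 in cKO. The cKO libraries lay on both sides of the WT libraries. Means were 0.175 ± 0.00651 and 0.171 ± 0.0301 (SD, n = 3; two-sided exact permutation test, p = 0.900, adjusted over 2 ratios 0.900), where 3 libraries against 3 cannot give a p below 0.1. Without cKO replicate 2 the log2 difference turned from -0.05 to 0.10. No shift of the ratio was detectable in this design, and the spread in cKO exceeded that in WT.

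Pgr (ENSMUSG00000031870.16, GRCm38 chromosome 9, 8899833 to 8968611, plus strand) stood at 177, 173 and 171 CPM in WT and at 160, 184 and 159 CPM in cKO. The highest value of all was a cKO library and the lowest 2 were the other cKO libraries. Means were 174 ± 3.20 and 168 ± 13.8 CPM, 96.6% of WT (SD, n = 3; log2 fold change -0.05, SE 0.0556, 95% interval -0.17 to 0.07, edgeR adjusted p = 0.508). Without cKO replicate 2 the log2 fold change was -0.12 with an adjusted p of 0.0360, so the absence of a call for Pgr turned on that library.

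Esr1, the main estrogen receptor of oviductal muscle and stroma (ENSMUSG00000019768.16, GRCm38 chromosome 10, 4611593 to 5005614, plus strand), gave 230, 247 and 238 CPM in WT and 216, 265 and 198 CPM in cKO. As for Pgr, cKO replicate 2 was above every WT library and the other cKO libraries were below them. The means were 239 ± 8.65 and 227 ± 34.8 CPM (SD, n = 3; log2 fold change -0.07, SE 0.0809, 95% interval -0.25 to 0.10, edgeR adjusted p = 0.501). Leaving out cKO replicate 2 gave -0.20 with an adjusted p of 0.00285, and leaving out cKO replicate 3 gave 0.01 with an adjusted p of 0.908. Within a library Pgr and Esr1 kept near the same proportion: per kilobase of exon Pgr was 1.23, 1.12 and 1.14 times Esr1 in WT and 1.19, 1.11 and 1.28 times Esr1 in cKO. Means of 1.16 ± 0.0575 and 1.19 ± 0.0877 did not differ beyond their spread (two-sided exact permutation test, n = 3 each, p = 0.700, adjusted 0.900).

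Esr2, the estrogen receptor best known from granulosa cells of the ovary (ENSMUSG00000021055.14, GRCm38 chromosome 12, 76120419 to 76177259, minus strand), was rare in every library. Its raw counts were 15, 37 and 33 in WT and 7, 7 and 11 in cKO, or 0.886, 1.98 and 1.93 CPM against 0.394, 0.371 and 0.708 CPM. All libraries were above the floor of 3 counts (0.159 to 0.193 CPM), and the highest cKO library was just below WT replicate 1. The mean fell from 1.6 ± 0.617 to 0.491 ± 0.188 CPM, or 30.7% of WT (SD, n = 3; log2 fold change -1.73, SE 0.383, 95% interval -2.55 to -0.90, edgeR adjusted p = 0.00241). In the order of size this was the largest change of the set, exceeded by 1.88% of tested genes, and it was also the least precise among the called genes. The nearest profiles among 10609 genes were Tenm4, Gsta4 and Gm4353, but at root mean square differences of 0.0885, 0.184 and 0.186. Profiles were compared on log2 of CPM plus 1, which shrinks the change of a gene as rare as Esr2. These 3 genes fell by less than Esr2, with log2 fold changes of -0.87, -0.65 and -1.02.
Some markers of granulosa and luteal cells were also lower in cKO. Of 8 listed, 4 were tested, of which Inha, Cyp11a1 and Star fell, where 43.7% of all tested genes were called and 21.8% were called lower. Foxl2 was not called (1.46 ± 0.498 and 1.13 ± 0.631 CPM). Fshr, Lhcgr, Amh and Cyp19a1 did not pass the filter, with group means of at most 0.493 CPM. The summed level of the 8 markers ran from 260 to 267 CPM in WT and from 106 to 130 CPM in cKO, of which nearly all came from Cyp11a1, Star and Inha. No marker was at 0 in all libraries. Whether such cells had a part in the fall of Esr2 was not tested.

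Nr3c1 encodes the glucocorticoid receptor (ENSMUSG00000024431.14, GRCm38 chromosome 18, 39410545 to 39491301, minus strand). It was at 137, 142 and 137 CPM in WT and at 135, 141 and 128 CPM in cKO, and the ranges overlapped. The means were 139 ± 3.17 and 135 ± 6.47 CPM, 97.1% of WT (SD, n = 3; log2 fold change -0.04, SE 0.0480, 95% interval -0.15 to 0.06, edgeR adjusted p = 0.509). A fall as large as that of Fkbp4 or Fkbp5 lies outside this interval.
Nr3c2, the mineralocorticoid receptor, which also binds glucocorticoid (ENSMUSG00000031618.13, GRCm38 chromosome 8, 76899442 to 77245012, plus strand), gave only 15 to 24 counts in WT and 16 to 21 counts in cKO. In CPM the libraries stood at 0.886, 1.28 and 1.11 in WT and at 0.900, 1.11 and 1.35 in cKO, with no order between the groups. The log2 fold change of 0.02 (SE 0.277, edgeR adjusted p = 0.964) had a 95% interval from -0.58 to 0.61, so changes of the size seen in Fkbp4 and Fkbp5 were not detectable at this depth. The gene shares 247 exon bases with Gm10649 on the other strand, and the counting used strand.

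Pgrmc1 (ENSMUSG00000006373.10, GRCm38 chromosome X, 36598206 to 36606079, plus strand), a heme-binding protein of internal membranes implicated in rapid responses to progesterone, moved least. Libraries were at 161, 156 and 165 CPM in WT and at 157, 155 and 170 CPM in cKO. Both means were 161 CPM, with SDs of 4.56 and 8.16 (n = 3; edgeR adjusted p = 0.996), and the 95% interval of the log2 fold change ran from -0.10 to 0.11. Larger absolute changes were measured in 99.9% of tested genes.

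Hsd11b1 (ENSMUSG00000016194.14, GRCm38 chromosome 1, 193221634 to 193264075, minus strand) was the only member whose cKO libraries all lay above WT. It was at 4.31, 3.42 and 4.10 CPM in WT and at 4.61, 5.84 and 4.76 CPM in cKO, with means of 3.94 ± 0.465 and 5.07 ± 0.668 CPM (SD, n = 3). The log2 fold change of 0.37 (SE 0.154, 95% interval 0.04 to 0.70) did not pass after adjustment over all tested genes (edgeR adjusted p = 0.0668). H6pd, which supplies NADPH to HSD11B1 in the lumen of the endoplasmic reticulum, was far more abundant and did rise: 454, 464 and 472 CPM became 738, 640 and 725 CPM (log2 fold change 0.60, SE 0.0537, edgeR adjusted p = 1.29e-06). Hsd11b2, the enzyme of the opposite reaction, stood at 6.26, 7.49 and 5.97 CPM in WT and at 7.37, 3.18 and 4.12 CPM in cKO and was not called (edgeR adjusted p = 0.152).

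**Figure D2:**
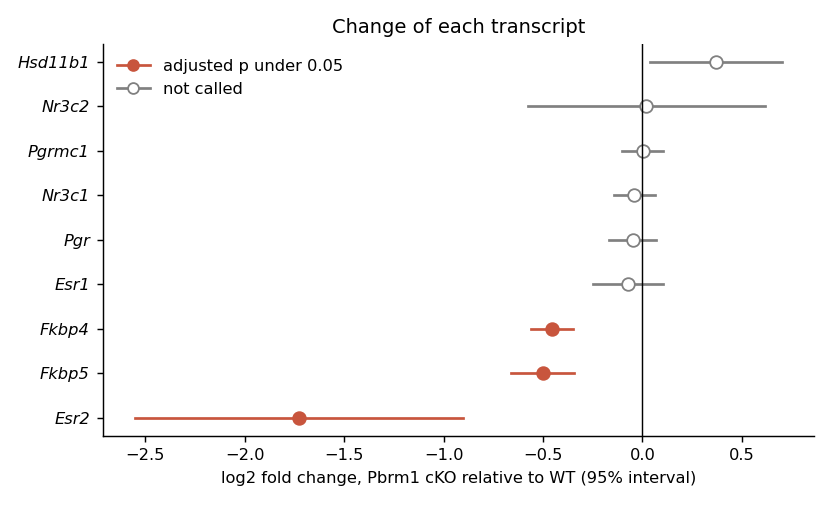
Log2 fold change of each of the 9 transcripts in Pbrm1 cKO relative to WT (horizontal axis), with its 95% interval as a line. The intervals of Fkbp4, Fkbp5 and Esr2 (filled, edgeR adjusted p under 0.05) lie wholly below 0, those of Esr2 and Nr3c2 are the widest, and Hsd11b1 was not called after adjustment.

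To compare genes with each other, CPM were divided by the length of the merged exons in kilobases. In WT the level per kilobase was highest for Fkbp4 (109 ± 1.41), followed by Pgrmc1 (86.6 ± 2.46). Pgr (20.3 ± 0.374), Fkbp5 (19.1 ± 0.885), Nr3c1 (18.7 ± 0.428) and Esr1 (17.5 ± 0.633) formed a group in which Pgr overlapped Fkbp5, and Fkbp5 overlapped Nr3c1, whereas Esr1 lay below Nr3c1 in every library. Hsd11b1 (0.928 ± 0.109), Esr2 (0.475 ± 0.183) and Nr3c2 (0.169 ± 0.0307) followed, each apart from the next. The cochaperone Fkbp4 was thus more abundant per kilobase than any receptor it serves, and only 1.96% of tested genes were above it.
In cKO the order differed at both ends. Pgrmc1 (86.6 ± 4.39 CPM per kilobase) and Fkbp4 (79.7 ± 5.01) overlapped, where Fkbp4 had stood apart and higher in WT. Fkbp5 (13.5 ± 1.67) dropped to the last place of the middle group, its range overlapping that of Esr1 (16.6 ± 2.54). Esr2 (0.146 ± 0.0558) fell to the level of Nr3c2 (0.173 ± 0.0349).

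**Figure D3:**
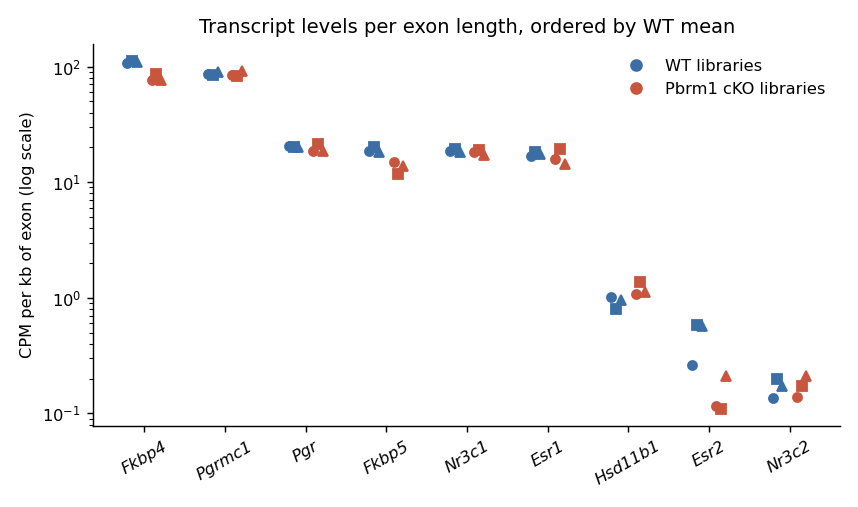
CPM per kilobase of merged exon (vertical axis, log scale) of the 9 transcripts in the 3 WT (blue) and 3 Pbrm1 cKO (red) libraries, with the symbol giving the replicate and the genes ordered by their WT mean. Fkbp4 and Pgrmc1 lead, Pgr, Fkbp5, Nr3c1 and Esr1 lie between 16.8 and 20.7 in WT and between 11.7 and 21.5 in cKO, and Hsd11b1, Esr2 and Nr3c2 lie far below.

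Variation within a group was wider in cKO for each of the 6 abundant genes. The coefficient of variation was 1.84% in WT and 8.24% in cKO for Pgr, 3.62% and 15.3% for Esr1, 1.29% and 6.29% for Fkbp4, and 4.63% and 12.3% for Fkbp5. Replicate 2 of cKO was the highest of its group for Pgr, Esr1, Nr3c1, Fkbp4 and Hsd11b1 and the lowest for Fkbp5, Esr2 and Pgrmc1. For Esr2 and Pgrmc1 it lay close to cKO replicate 1, and cKO replicate 3 stood apart, at 0.708 and 170 CPM. Residual Pbrm1 in cKO replicate 2, at 50.7 CPM, was also the highest of the 3, and mitochondrial genes took 7.81% of its counts against 6.88% and 7.08% in the other cKO libraries and 7.95% to 8.24% in WT. The fall of Fkbp4, Fkbp5 and Esr2 was called with and without it. The part of these library differences in the results was not tested.

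The other chaperones and cochaperones of the receptor complex were mostly abundant, and most were not called. Of 21 listed, all were tested, 2 rose, 6 fell and 13 were not called, with a median log2 fold change of -0.07, and 43.7% of all tested genes were called. Without WT replicate 3 or cKO replicate 3, or with DESeq2, 5 were called. In these fits calls over all tested genes dropped from 6723 to 5797, 5866 and 5307, in the same order. The HSP90 genes themselves were not called: Hsp90ab1 stood at 3390 ± 79.6 and 3331 ± 128 CPM in WT and cKO (n = 3, edgeR adjusted p = 0.686), and Hsp90aa1 at 690 ± 26.3 and 641 ± 17.2 CPM (edgeR adjusted p = 0.0735). Hspa4, a nucleotide exchange factor of HSP70, fell from 1055, 1077 and 1130 CPM to 805, 894 and 799 CPM (log2 fold change -0.38, edgeR adjusted p = 4.81e-05). Its relative Hsph1 fell by 0.30 on the log2 scale (edgeR adjusted p = 0.0257), a call lost without cKO replicate 3 (-0.17, adjusted p = 0.0721) or without WT replicate 2 or 3. St13, the HSP70-interacting protein HIP of the early receptor complex, rose from 244, 265 and 258 CPM to 323, 309 and 318 CPM (log2 fold change 0.31, edgeR adjusted p = 1.08e-04). Ppid, the cyclophilin that occupies the same HSP90 site as FKBP4 and FKBP5, fell from 130, 137 and 137 CPM to 99.4, 111 and 103 CPM (log2 fold change -0.36, edgeR adjusted p = 6.48e-05). Ppp5c, a phosphatase that binds there too, fell from 81.0 ± 4.84 to 69.5 ± 4.90 CPM (log2 fold change -0.22, edgeR adjusted p = 0.0112, or 0.0546 without WT replicate 1). Unc45a, another protein that binds HSP90 through tetratricopeptide repeats, fell from 63.6 ± 1.33 to 55.7 ± 2.53 CPM (log2 fold change -0.19, edgeR adjusted p = 0.00994). Stip1, Stub1 and Fkbpl, which also bind in this way, were not called. Stip1 stood at 359 ± 12.6 and 382 ± 6.42 CPM (edgeR adjusted p = 0.122), Stub1 at 98 ± 2.77 and 105 ± 1.74 CPM (0.111) and Fkbpl at 4.14 ± 0.118 and 4.78 ± 0.942 CPM (0.325). Ptges3, the p23 protein of the mature complex, stood at 150 ± 6.0 and 136 ± 8.06 CPM (edgeR adjusted p = 0.0502).

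Other receptors of steroids included the membrane receptors of the PAQR family. Of 12 listed genes 7 were tested, of which 2 rose, 3 fell and 2 were not called (median log2 fold change -0.01), against 43.7% of all tested genes called. Without WT replicate 1 or 3 or cKO replicate 1, 3 of the 7 were called, of which 1 was lower. With DESeq2 all 12 were tested and 3 were called, again with 1 lower. Calls over all tested genes dropped too, from 6723 to 5676, 5797 and 5547 without these libraries, in the same order, and to 5307 with DESeq2. Paqr5, a membrane progesterone receptor, rose from 0.355, 0.214 and 0.644 CPM to 1.57, 2.44 and 1.09 CPM (log2 fold change 2.10, SE 0.409, edgeR adjusted p = 9.76e-04), at few counts. Its relatives Paqr7 (9.84 ± 0.746 to 7.75 ± 0.756 CPM, log2 fold change -0.35, edgeR adjusted p = 0.0230) and Paqr8 (6.33 ± 0.581 to 5.01 ± 0.307 CPM, -0.34, adjusted p = 0.0462) fell, but these calls were lost under 5 and 9 of 14 alternative analyses, leaving out WT replicate 1 or 3 or cKO replicate 1 among them for both (adjusted p of at most 0.0936 and 0.196 over all alternatives). Pgrmc2, the paralog of Pgrmc1, fell slightly (82.8 ± 2.75 to 71.7 ± 1.59 CPM, log2 fold change -0.21, edgeR adjusted p = 0.00362), and Nenf, a secreted protein with the same heme-binding fold, rose (27.6 ± 1.25 to 34.9 ± 1.75 CPM, 0.34, adjusted p = 0.00113).

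Coregulators, the coactivators and corepressors recruited by a receptor on DNA, were tested in 21 of 22 cases, with 3 higher, 10 lower and 8 not called (median log2 fold change -0.16), where 43.7% of all tested genes were called and 21.8% were called lower. The count of lower genes varied with the library left out: it was 6 without WT replicate 1, WT replicate 2 or cKO replicate 1, and without cKO replicate 3 the list had 5 higher and 5 lower. Lower calls over all tested genes also dropped, from 3350 to 2809, 2722, 2737 and 2895 in these fits, in the same order. Pnrc1, a nuclear receptor coactivator, rose from 31.7 ± 0.974 to 54.6 ± 3.21 CPM (log2 fold change 0.78, edgeR adjusted p = 4.17e-07). Sra1, which yields the steroid receptor RNA activator, rose by 0.41 on the log2 scale (adjusted p = 1.29e-04). Lower were Ppargc1b (1.25 ± 0.0860 to 0.574 ± 0.211 CPM, log2 fold change -1.11, edgeR adjusted p = 0.0118, or 0.0613 without cKO replicate 1), the corepressor Lcor (-0.37, adjusted p = 0.00248) and Pelp1, an estrogen receptor coactivator (-0.32, adjusted p = 2.52e-04). The p160 coactivators Ncoa1, Ncoa2 and Ncoa3 were not called.

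Enzymes that make, activate or inactivate steroids moved both ways. Of 25 listed, 18 were tested, with 7 higher, 6 lower and 5 not called, against 43.7% of all tested genes called. Their median log2 fold change was 0.07, and it turned to -0.03 without WT replicate 2 and to -0.06 without cKO replicate 3. The side-chain cleavage enzyme Cyp11a1, the first step from cholesterol to any steroid, fell from 151, 152 and 154 CPM to 56.0, 31.5 and 54.0 CPM (log2 fold change -1.70, SE 0.140, edgeR adjusted p = 5.99e-07). Hsd3b1, the next step toward progesterone, fell from 26.2 ± 1.10 to 14.8 ± 3.95 CPM (-0.83, adjusted p = 3.29e-04), and Hsd17b1, which forms estradiol, from 3.38 ± 0.543 to 1.20 ± 0.582 CPM (-1.52, adjusted p = 6.97e-04). Akr1c18, which inactivates progesterone, fell from 14.8 ± 1.59 to 5.62 ± 0.464 CPM (log2 fold change -1.40, edgeR adjusted p = 6.29e-07). In the other direction Cyp1b1, which hydroxylates estrogens, rose from 172, 177 and 181 CPM to 345, 299 and 333 CPM (log2 fold change 0.88, edgeR adjusted p = 4.35e-08). Cyp11a1 and Star are also 2 of the granulosa and luteal markers given beside Esr2.

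Genes that respond to glucocorticoid in many cell types were tested in 19 of 21 cases, and 10 rose, 2 fell and 7 were not called, with a median log2 fold change of 0.56 against 0.0016 over all tested genes, of which 43.7% were called and 21.9% were called higher. The genes that rose numbered 8 to 11 over the alternatives, and those that fell numbered 0 without WT replicate 2, WT replicate 3 or cKO replicate 2 and 1 on leaving out any other library. Zbtb16, a zinc finger repressor, rose from 3.07, 3.15 and 3.34 CPM to 8.49, 5.09 and 8.88 CPM (log2 fold change 1.22, edgeR adjusted p = 2.46e-04). Cebpd, a transcription factor of acute responses, rose from 6.21 ± 1.12 to 14.2 ± 2.64 CPM (1.19, adjusted p = 3.40e-05), and Lcn2, a siderophore-binding protein, from 83.9 ± 8.69 to 177 ± 22.0 CPM (1.08, adjusted p = 4.64e-07). The MAP kinase phosphatase Dusp1 rose by 0.76 and Klf15 by 0.79 on the log2 scale (edgeR adjusted p = 2.33e-05 and 0.0177), and the call of Klf15 was lost without WT replicate 2 or 3 or cKO replicate 1 (adjusted p 0.0610 to 0.0795). Other members of the list were not called: Tsc22d3 (26.0 ± 2.09 and 24.6 ± 1.55 CPM, edgeR adjusted p = 0.415), Per1 (22.0 ± 3.09 and 21.7 ± 2.02 CPM, 0.873) and Sgk1 (265 ± 2.69 and 265 ± 27.8 CPM, 0.973). Fkbp5, a glucocorticoid-induced gene that was not in this list, fell while most called genes of the list rose. Several of these genes also respond to stress, and a list of genes induced by tissue dissociation moved in the same direction, with 6 of 10 higher, 1 lower and a summed level of 408 to 481 CPM in WT and 551 to 591 CPM in cKO. Leukocyte markers rose as well (9 of 9 tested). The part of either in the rise was not tested.
Replicate 2 of cKO was the lowest cKO library for Fkbp5 and also for Zbtb16, Dusp1, Klf9, Cebpd, Mt1, Mt2 and Sgk1. It was the lowest too in summed markers of smooth muscle (4254 CPM), fibroblasts (7401 CPM) and epithelium (1258 CPM) and in dissociation genes (551 CPM). In leukocyte markers it was the highest (1169 CPM), and in endothelial and mesothelial markers it was not the lowest. The low place of this library was thus not particular to glucocorticoid-responsive genes. Metallothionein levels in cKO replicate 2 were 113 CPM for Mt1 and 236 CPM for Mt2. WT means were near these, at 104 and 255 CPM.

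Progesterone-responsive genes of the reproductive tract were tested in 16 of 19 cases, with 2 higher, 7 lower and 7 not called (median log2 fold change -0.13), where 43.7% of all tested genes were called and 21.8% were called lower. Without WT replicate 2 the lower genes were 4, and lower calls over all tested genes dropped from 3350 to 2722. Lrp2, the endocytic receptor megalin, fell from 23.1 ± 3.52 to 8.17 ± 1.68 CPM (log2 fold change -1.49, edgeR adjusted p = 1.80e-06). The homeobox gene Hoxa11 fell from 4.32 ± 0.370 to 2.24 ± 0.732 CPM (-0.93, adjusted p = 0.00252), Inhbb, an activin subunit, from 115 ± 2.11 to 81.5 ± 2.14 CPM (-0.50, adjusted p = 1.66e-06) and Hand2, a progesterone-induced transcription factor of the stroma, from 11.2 ± 0.866 to 8.43 ± 0.841 CPM (-0.42, adjusted p = 0.00658). The study, showing genome browser tracks, describes Hand2 transcription as comparable between the genotypes in oviductal smooth muscle cells. Here, in the fit of counts, Hand2 stood at 75.0% of its WT mean and was called lower under the chosen analysis and all 14 alternatives. The alternatives refitted the same libraries, and no minimum fold change was set. The study's calls in uterine stromal cells did require one. Whether a fall of this size would show in browser tracks was not tested. The ligand Wnt4 rose from 32.7 ± 1.40 to 44.9 ± 8.37 CPM (log2 fold change 0.45, edgeR adjusted p = 0.00400).
All 18 listed estrogen-responsive genes were tested, with 7 higher, 3 lower and 8 not called (median log2 fold change 0.07), where 43.7% of all tested genes were called, 21.9% higher and 21.8% lower. Ltf, which encodes lactotransferrin, rose from 216, 258 and 259 CPM to 363, 356 and 383 CPM (log2 fold change 0.59, edgeR adjusted p = 7.29e-06), and Fos from 32.6 ± 2.93 to 58.9 ± 4.32 CPM (0.85, adjusted p = 9.83e-07). Clca3a1 and the mucin Muc1 rose by 0.56 and 0.40 on the log2 scale (edgeR adjusted p = 0.00855 and 0.00353), with an adjusted p of 0.0526 for Clca3a1 without cKO replicate 1. Rasd1, a small GTPase induced by steroids, fell from 26.8 ± 0.936 to 12.6 ± 2.94 CPM (-1.09, adjusted p = 1.06e-05). Greb1, among the most direct targets of estrogen receptor alpha, was at 273, 251 and 245 CPM in WT and at 248, 225 and 234 CPM in cKO and was not called (edgeR adjusted p = 0.0778). Ltf and Muc1 are also products of epithelial cells, and 5 of 10 epithelial markers rose and none fell, with a summed level of 1134 to 1233 CPM in WT and 1258 to 1399 CPM in cKO. Without WT replicate 1 the epithelial markers called were 2, and without cKO replicate 1 they were 3. Calls over all tested genes dropped from 6723 to 5676 and 5547 in these fits. Fos is also 1 of the dissociation genes.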

How the data were processed

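The authors deposited raw counts of reads per gene for the 6 libraries. Per the submitters' processing notes and the file headers, reads were trimmed with cutadapt, aligned with HISAT2 to GRCm38.p5 and assigned to GENCODE exons by featureCounts 1.6.4 with the reverse strand setting, which leaves out reads that map to several places. The members share no exon bases with another gene on their strand, and BLAST 2.17.0 against GENCODE transcripts found no near copy of them. Counts were fitted by edgeR 4.0.16 under R 4.3.3 (two-sided quasi-likelihood test, TMM factors, filterByExpr by group) and adjusted by Benjamini-Hochberg over 15376 genes at a threshold of 0.05; the test was checked on simulated counts. Symbols came from GENCODE for 99.7% of the 54232 genes. Alternatives were DESeq2 1.42.0, limma-voom (limma 3.58.1), other scalings and filters, a replicate block and leaving out each library. The members and gene lists were chosen with earlier results of these data known. Text names all members, up to 5 called genes with the largest change per list, the 3 nearest profiles of each called member (genes of at least 5 CPM, log2 of CPM plus 1), and markers or list genes that bear on a member; other list genes given for their role, called or not, were chosen after their values were seen. Replicates of a group differed by more than sampling noise. The floor of 3 counts and other limits of depth cover counting error only, since reads carried no molecular identifiers.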

Additional observations from a re-analysis of the deposited data

How the results depend on the processing

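Members called numbered 3 under the chosen analysis and 5 without cKO replicate 2, and leaving out each library gave 3 to 5. Calls over all tested genes numbered 6723 under the chosen analysis and 7054 without cKO replicate 2. A minimum of 10 counts in every library removed Esr2 before testing. Fkbp4 (log2 fold change -0.50 to -0.43), Fkbp5 (-0.59 to -0.40) and Esr2 (-2.05 to -1.54) kept their direction and call under every alternative that tested them, with adjusted p of at most 1.42e-04, 9.16e-04 and 0.0157. Hsd11b1 was not called under any of 14 (adjusted p 0.0564 to 0.240). Leaving out each library gave Pgr -0.1157 to -0.0129 and Esr1 -0.1983 to 0.0132, with the calls of both made without cKO replicate 2 and the sign of Esr1 turned without cKO replicate 3. Nr3c2 ranged from -0.1218 to 0.1555 on leaving out each library. Pgrmc1, near 0 throughout, turned to -0.0035 with DESeq2, -0.0009 with limma-voom, -0.0020 with DESeq2 size factors, -0.0115 with upper quartile factors and -0.0098 without a filter, and ranged from -0.0413 to 0.0306 on leaving out each library. The log2 difference of the Fkbp5 to Fkbp4 ratio was -0.05 (-0.1571 to 0.0987 on leaving out each library, turned without cKO replicate 2), and that of Pgr to Esr1 was 0.03 (-0.0224 to 0.0838, turned without cKO replicate 3). The causes were not tested.

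With the replicate number as a block, 3 members were called, as without it, and 6908 genes in all against 6723. Deviations of same-numbered libraries correlated at -0.0364, 0.0532 and 0.127, so the numbers were not taken to pair the samples. Among the list genes with the largest changes, up to 5 a list, calls were lost for Paqr8 in 9 of 14 alternatives, Paqr7 in 5, Hsph1 and Klf15 in 4 each, Ppargc1b in 2 of 13, and Ppp5c and Clca3a1 in 1 each. The chaperone list held 5 to 10 called genes over the alternatives, the other receptors 3 to 5 and the coregulators 9 to 15. The steroid enzymes held 11 to 14, the glucocorticoid response 8 to 12, the progesterone response 6 to 10 and the estrogen response 8 to 11. Calls over all tested genes moved as well, from 5307 of 17395 with DESeq2 to 7054 of 15671 without cKO replicate 2. The scalings moved the median of all genes to between -0.0103 and 0.0174.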

Other observations

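Markers of the mesothelium, the serosal cover of the oviduct, were lower in cKO, and those of the endothelium were mostly not called. Of 6 mesothelial markers 4 fell: Muc16 (5.40 to 2.16 CPM, log2 fold change -1.31, edgeR adjusted p = 9.90e-05), Upk1b (46.7 to 25.8 CPM, -0.86, adjusted p = 1.21e-06), Msln (54.6 to 30.8 CPM, -0.82, adjusted p = 1.28e-07) and Lrrn4 (26.1 to 20.1 CPM, -0.37, adjusted p = 0.00181). Wt1, which many stromal cells of the tract also express, was at 55.0 and 53.7 CPM (edgeR adjusted p = 0.636). The summed level of the 6 ran from 205 to 215 CPM in WT and from 153 to 155 CPM in cKO. Of 8 endothelial markers, Kdr, the VEGF receptor, fell (182 to 99.4 CPM, log2 fold change -0.87, edgeR adjusted p = 3.65e-07), Vwf rose (4.35 to 14.2 CPM, 1.71, adjusted p = 6.12e-06) and 6 were not called. Of 10 smooth muscle markers 5 rose and 1 fell, and of 9 fibroblast markers tested 6 rose and 1 fell. These marker counts stand beside 43.7% of all tested genes called, 21.9% higher and 21.8% lower. The genes named here were chosen after their values were seen.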
